A study of Schizosaccharomyces pombe with 6 samples.

Results

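The mitochondrial ribosome and protein import genes were represented by 63 of the 2936 fission yeast (Schizosaccharomyces pombe) probe sets tested, each for a different gene. They were taken by symbol: the platform annotation gave the probe set a single gene symbol that opened with mrpl, mrps, mrp, tim, tom, mas or oxa followed by a digit. By role, 39 of them encode mitochondrial ribosomal proteins, 27 of the large and 12 of the small subunit, with the mrp genes placed by their known Saccharomyces cerevisiae homologues. A further 22 encode parts of the import and insertion machinery. The other two matched by symbol while having another function: tim11 encodes a subunit of the ATP synthase and mas5 a cytosolic Hsp40 chaperone. By the symbols of the current annotation the same rule gave 64 genes. It added sdh4, also called tim18, and tom6, and dropped tim40, now called mia40.

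Most mitochondrial proteins, the proteins of the mitochondrial ribosome among them, are encoded in the nucleus, made on cytosolic ribosomes and imported. They enter through the TOM complex of the outer membrane and are then sorted. The TIM23 complex and its Hsp70-driven motor pull proteins with a presequence into the matrix, where a processing peptidase cuts the presequence off. The TIM22 complex inserts carrier proteins into the inner membrane with the help of small Tim chaperones, and the Oxa1 insertase places proteins made on mitochondrial ribosomes into the same membrane. Fkh2 belongs to the forkhead family of transcription factors and acts in the cell-cycle control of genes expressed around mitosis.

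Expression was measured on 6 Affymetrix yeast arrays, 2 for each of 3 groups grown to mid-log phase in YEL, a rich medium. The fkh2delta group lacked fkh2 and carried the strain name CG 116. The fkh2-S2A group carried an allele of fkh2 whose change the labels do not give, and the wild-type group carried none. These last groups shared the strain name CG 209. The fkh2 signal was 4.34 and 4.05 on the fkh2delta arrays, below the background level, 7.47 and 7.76 on the fkh2-S2A arrays and 7.53 and 7.39 on the wild-type arrays. The marker gene ura4 was at 5.40 and 6.17 on the fkh2delta arrays, 12.83 and 12.85 on the fkh2-S2A arrays and 12.79 and 12.56 on the wild-type arrays. The loss of fkh2 therefore cannot be told apart from that of ura4 or from other differences between the strains. Values are log2 signals and changes are log2 differences between groups, given ± their SE (standard error) from limma. A gene was called where its adjusted p in limma was below 0.05. All 63 genes lay above the background level on all 6 arrays. That level, the 95th percentile of the probe sets listed for S. cerevisiae, was between 5.17 and 5.35. Arrays were few, which limits the precision, and nothing in the labels ties the arrays of a group to separate cultures. An array reads RNA from a whole culture, so fewer cells with a transcript and less transcript per cell cannot be told apart.

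In fkh2delta 27 of the 39 genes of the mitochondrial ribosome were higher than in wild type and 3 were lower. Of the 22 import and insertion genes 10 were higher and 5 lower. Of the 63 genes, 38 rose and 8 fell, which is 60.3% and 12.7%. Over all probe sets tested 64.0% were called, 40.4% higher and 23.6% lower. The median difference was 0.37 over the 63 genes and 0.16 over all probe sets. Most of the changes were small: mrp17 rose more than 2-fold, and mrpl10, mrpl37, tim22 and tom40 fell more than 2-fold. The median of the 63 log2 signals was 11.04 and 11.003 on the fkh2delta arrays, 10.83 and 10.83 on the fkh2-S2A arrays and 10.79 and 10.83 on the wild-type arrays. With each array centred on its median, which lowers every fkh2delta difference by 0.12, the counts became 31 higher and 13 lower, beside 33.3% and 30.9% of all probe sets.

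Of the 27 large-subunit genes, 18 rose and 2 fell in fkh2delta, with a median difference of 0.50. Of the 12 small-subunit genes, 9 rose and 1 fell, with a median of 0.39. The highest rise among the large-subunit genes was that of mrpl17, with signals of 11.04 and 11.05 in fkh2delta, 10.32 and 10.52 in fkh2-S2A and 10.09 and 10.01 in wild type. Its difference between fkh2delta and wild type was 0.99 ± 0.10 (1.99-fold, adjusted p = 6.80e-05). The gene mrpl44 gave 10.30 and 10.50 in fkh2delta, 9.53 and 9.15 in fkh2-S2A and 9.50 and 9.50 in wild type, a difference of 0.90 ± 0.14 for fkh2delta (adjusted p = 0.000473). In mrpl17 the 3 groups stood apart, with fkh2-S2A in the middle, whereas the fkh2-S2A arrays of mrpl44 lay on both sides of wild type.

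Among the small-subunit genes, mrp10 gave 10.79 and 10.75 in fkh2delta, 10.11 and 10.004 in fkh2-S2A and 9.70 and 9.84 in wild type. It was 1.00 ± 0.10 higher in fkh2delta than in wild type (1.99-fold, adjusted p = 5.75e-05), and no groups overlapped. The gene mrps17 gave 11.37 and 11.64 in fkh2delta, 10.41 and 10.39 in fkh2-S2A and 10.61 and 10.50 in wild type, a rise of 0.95 ± 0.11 (1.93-fold, adjusted p = 0.000141). Here both fkh2-S2A arrays lay just under wild type. The other ribosomal genes that rose, leaving mrp17 aside, had differences between 0.25 (mrps18) and 0.88 (mrpl24). The call of mrps18 was lost in 11 of 16 other settings, with differences from 0.12 to 0.27 in all of them. The calls of mrp20, mrps5 and mrp21 were lost in 8, 6 and 5 of the 16. Those of mrpl23 and mrpl38 were lost in 2 each, and those of mrps8 and mrpl40 in 1 each.

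The probe set of mrp17, a small-subunit gene, gave 10.13 and 10.24 in fkh2delta, 7.87 and 8.19 in fkh2-S2A and 7.84 and 7.78 in wild type. It was 2.37 ± 0.12 higher in fkh2delta than in wild type (5.19-fold, adjusted p = 1.71e-06). Its origin is uncertain. In assembly ASM294v3 the annotated span of mrp17 overlaps that of mug28, a gene named for its upregulation in meiosis, over 1970 of the 2934 bases of mrp17 (67.1%). The probe set of mug28 was 2.45 ± 0.17 higher in fkh2delta than in wild type, and -0.07 ± 0.17 from wild type in fkh2-S2A. It was singled out after its values were seen. The sources used here do not give the position of the mrp17 probes, so the signals of the overlapping genes cannot be told apart. Of the 63 genes, 55 overlapped some annotated gene and 43 overlapped a noncoding gene, with spans compared without regard to strand. Overlaps with protein-coding genes were present for 37 of the 63 genes, and for 9 of them a single such gene covered more than 50% of the span. Another of these was mrps28, which overlaps cog8, a gene of the Golgi COG complex, over 83.1% of its span. Here mrps28 was 0.59 ± 0.09 higher in fkh2delta and cog8 was 0.89 higher. The span of mrp2 lies wholly within that of apl6, a gene of a vesicle coat adaptor, and here the neighbours went opposite ways in fkh2delta, with differences of 0.62 for mrp2 and -0.52 for apl6. The span of mrp20 lies wholly within that of apm4, with fkh2delta differences of 0.30 for mrp20 and 0.42 for apm4. The gene sip1 covers 91.7% of the span of tom7, and the differences were 0.73 for tom7 and 0.18 for sip1. The neighbours named here were also chosen after their values were seen. For the other genes covered over more than 50% of their span, no probe set tested was matched to the covering gene.

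The ribosomal genes that fell in fkh2delta were mrpl10, mrpl37 and mrp51. The large-subunit gene mrpl10 gave 8.56 and 8.22 in fkh2delta, 9.22 and 9.63 in fkh2-S2A and 9.63 and 9.74 in wild type. It was 1.30 lower in fkh2delta than in wild type, with a log2 difference of -1.30 ± 0.16 (2.46-fold lower, adjusted p = 0.000148). The large-subunit gene mrpl37 gave 10.34 and 10.07 in fkh2delta, 10.87 and 10.95 in fkh2-S2A and 11.37 and 11.62 in wild type, with a difference of -1.29 ± 0.13 for fkh2delta (2.44-fold lower, adjusted p = 5.39e-05). The small-subunit gene mrp51 fell with a difference of -0.83 ± 0.10 (adjusted p = 0.000141). For mrpl37 the groups formed 3 steps, with fkh2delta lowest and wild type highest.

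**Figure D1:**
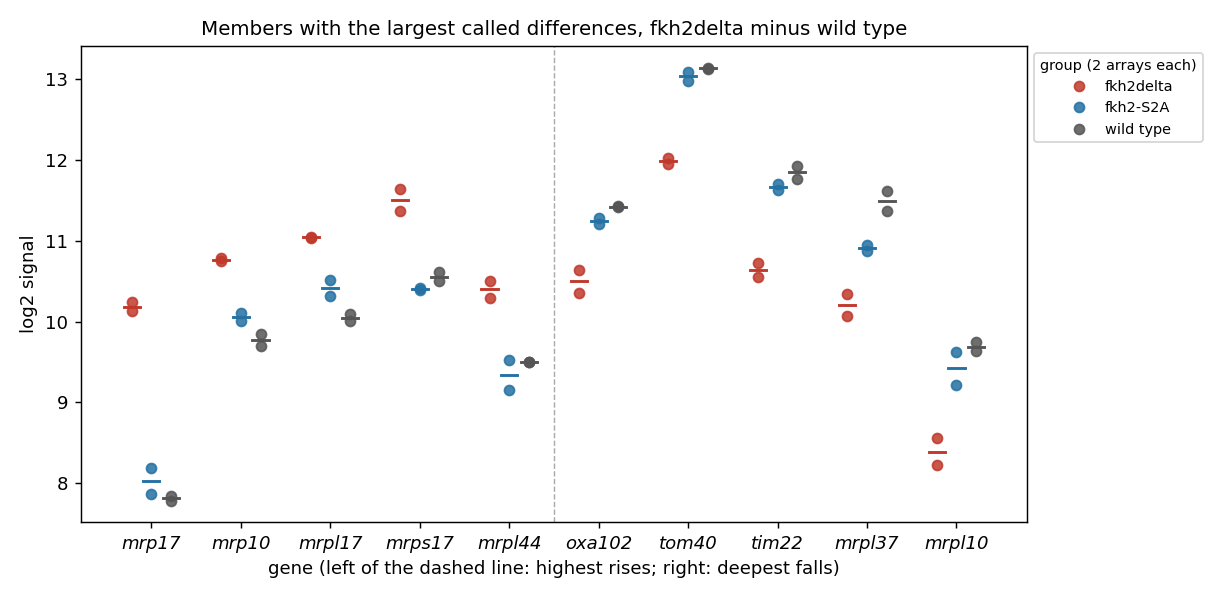
Log2 signal of the 5 called rises and 5 called falls of largest size in fkh2delta against wild type. Points are arrays (2 per group) and bars are group means, in the order fkh2delta, fkh2-S2A and wild type. In all 10 genes both fkh2delta arrays lie apart from the wild-type arrays, and the fkh2-S2A mean lies nearer to the wild-type mean than to the fkh2delta mean. The genes were chosen by their fkh2delta difference, so the separation follows from the choice, which also favours the position of fkh2-S2A. Of all 2936 probe sets, 2557 had fkh2delta and wild-type arrays that did not overlap.

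Of the 22 import and insertion genes, 10 rose and 5 fell in fkh2delta, with a median difference of 0.27. Those shares, 45.5% and 22.7%, are near the 40.4% and 23.6% of all probe sets. The 5 that fell were tom40, tim22, oxa102, tim23 and tim17. The gene tom40, for the pore of the TOM complex, gave 12.03 and 11.95 in fkh2delta, 12.98 and 13.10 in fkh2-S2A and 13.13 and 13.15 in wild type. Its difference between fkh2delta and wild type was -1.15 ± 0.10 (2.22-fold lower, adjusted p = 2.31e-05). The gene tim22, for the channel of the TIM22 complex, gave 10.72 and 10.55 in fkh2delta, 11.63 and 11.70 in fkh2-S2A and 11.77 and 11.92 in wild type, a difference of -1.21 ± 0.11 (2.31-fold lower, adjusted p = 3.05e-05). In both genes the fkh2-S2A arrays lay slightly under wild type and far above fkh2delta. The insertase gene oxa102 gave 10.65 and 10.36 in fkh2delta, 11.28 and 11.21 in fkh2-S2A and 11.42 and 11.43 in wild type, a difference of -0.92 ± 0.11 (1.90-fold lower, adjusted p = 0.000158). Its paralogue oxa101 differed from wild type by -0.14 ± 0.09 in fkh2delta and did not pass (adjusted p = 0.228).

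The channel subunits of the TIM23 complex fell less deeply. The difference between fkh2delta and wild type was -0.43 ± 0.11 for tim23 (adjusted p = 0.00781) and -0.38 ± 0.09 for tim17 (adjusted p = 0.00584). Without fkh2delta replicate 2 both differences were -0.34 and did not pass. Without wild-type replicate 2 that of tim23 was -0.37 and did not pass. The gene of their receptor subunit tim50 rose by 0.37 ± 0.12 (adjusted p = 0.0199), a call lost without wild-type replicate 2 (0.24), without either fkh2delta array (0.38 and 0.36), with median centring and with quantile normalization. The regulatory subunit gene tim21 did not pass (0.18 ± 0.11).

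The remaining import genes were higher in fkh2delta or did not pass. Of the intermembrane space chaperones, which escort hydrophobic proteins between the membranes, tim9 gave 12.91 and 13.04 in fkh2delta, 12.13 and 11.91 in fkh2-S2A and 12.23 and 12.21 in wild type. It was 0.75 ± 0.11 higher in fkh2delta than in wild type (adjusted p = 0.00037). Its relatives tim8 and tim13 rose by 0.73 ± 0.14 and 0.45 ± 0.11, and tim10, the partner of tim9, was 0.52 ± 0.24 higher without passing (adjusted p = 0.0800). On the fkh2-S2A arrays tim10 gave 11.55 and 10.66, a wide spread. In the TOM complex the small assembly subunit gene tom7 rose by 0.73 ± 0.14, the receptor gene tom70 by 0.71 ± 0.12 and the receptor gene tom22 by 0.32 ± 0.12, and the receptor gene tom20 did not pass (0.05 ± 0.09). The call of tom22 did not hold in 8 of 16 alternatives, including those without wild-type replicate 2 (0.21) and without fkh2delta replicate 1 (0.35) or 2 (0.29). Of the motor genes, tim16 rose by 0.65 ± 0.11, while tim14 (-0.26 ± 0.10) and tim44 (-0.15 ± 0.09) did not pass. The accessory TIM22 subunit gene tim54 rose by 0.61 ± 0.13, and mas2, for a subunit of the processing peptidase, rose by 0.30 ± 0.10 (adjusted p = 0.0276). The last call was lost in 6 of 16 alternatives: without wild-type replicate 2 (0.22), without fkh2delta replicate 1 (0.29) or 2 (0.30), with median centring (0.17), with quantile normalization (0.21) and with both species tested (0.30).

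In fkh2-S2A 6 of the 12 genes called were import and insertion genes, all above wild type, and the other 6 were ribosomal genes, mostly below it. Of the 63 genes, 7 rose and 5 fell, which is 11.1% and 7.94%. Over all probe sets 33.3% were called, 23.5% higher and 9.84% lower. No gene of the 63 changed 2-fold, and their differences ran from -0.58 to 0.81 with a median of -0.09, against 0.04 over all probe sets. The sign of that median depended on the processing: it was 0.01 after the trend with gene length was removed. Of the 39 ribosomal genes 1 rose and 5 fell, which is 2.56% and 12.8%. Of the 22 import and insertion genes 6 rose and none fell, and 27.3% rising is near the 23.5% of all probe sets. The split of 7 higher and 5 lower became 7 and 10 with median centring, beside 19.1% and 17.0% of all probe sets, and 10 and 3 with the length trend removed, beside 23.9% and 10.7%. Both this comparison and that of fkh2delta used the same wild-type arrays.

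The highest rise in fkh2-S2A was that of tom70, the receptor gene for carrier precursors, with 12.82 and 12.73 in fkh2-S2A, 12.62 and 12.72 in fkh2delta and 12.12 and 11.81 in wild type. Its difference between fkh2-S2A and wild type was 0.81 ± 0.12 (1.75-fold, adjusted p = 0.00263). The peptidase gene mas2 gave 10.73 and 10.63 in fkh2-S2A, 10.34 and 10.33 in fkh2delta and 10.12 and 9.95 in wild type, a rise of 0.65 ± 0.10 in fkh2-S2A (1.57-fold, adjusted p = 0.00286). The gene tim44, which anchors the Hsp70 motor at the channel, gave 11.23 and 11.23 in fkh2-S2A, 10.62 and 10.60 in fkh2delta and 10.76 and 10.76 in wild type, a rise of 0.47 ± 0.09 (adjusted p = 0.00545). Both mutants lay above wild type in tom70 and mas2, whereas in tim44 only the fkh2-S2A arrays did.

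Further rises in fkh2-S2A were those of tim50, tim40 and tim54. The receptor gene tim50 gave 8.75 and 8.93 in fkh2-S2A, 8.60 and 8.62 in fkh2delta and 8.37 and 8.11 in wild type, a difference of 0.60 ± 0.12 (adjusted p = 0.00590). The gene tim40, for the Mia40 oxidoreductase that traps proteins in the intermembrane space, gave 9.46 and 9.52 in fkh2-S2A, 9.28 and 9.21 in fkh2delta and 9.21 and 8.78 in wild type. It was 0.49 ± 0.14 higher in fkh2-S2A than in wild type (adjusted p = 0.0254), and the wild-type arrays were the most widely spread of the 3 groups. The rise of tim54 was 0.43 ± 0.13 (adjusted p = 0.0334). The ribosomal gene mrpl17 rose by 0.37 ± 0.10 (adjusted p = 0.0267).

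The genes that fell in fkh2-S2A were all ribosomal. The difference of mrpl37, described above, was -0.58 ± 0.13 (adjusted p = 0.0100). The large-subunit gene mrpl4 gave 9.73 and 10.07 in fkh2-S2A, 10.12 and 10.07 in fkh2delta and 10.39 and 10.28 in wild type, a difference of -0.43 ± 0.12 (adjusted p = 0.0287). The small-subunit gene mrps16 gave 10.36 and 10.47 in fkh2-S2A, 10.62 and 10.61 in fkh2delta and 10.73 and 10.95 in wild type, a difference of -0.42 ± 0.11 (adjusted p = 0.0185). In both, fkh2delta lay under wild type without passing. The small-subunit gene mrp51 gave 10.02 and 9.89 in fkh2-S2A, 9.43 and 9.49 in fkh2delta and 10.23 and 10.36 in wild type, a difference of -0.34 ± 0.10 (adjusted p = 0.0318). The large-subunit gene mrpl33 gave 10.13 and 10.20 in fkh2-S2A, 11.13 and 11.28 in fkh2delta and 10.52 and 10.50 in wild type. It was called lower in fkh2-S2A (-0.35 ± 0.10, adjusted p = 0.0267) and higher in fkh2delta (0.69 ± 0.10, adjusted p = 0.000339), the one gene of the 63 called in opposite directions against wild type. The fkh2-S2A call of mrpl33 was lost in 7 of 16 alternatives, and with the length trend removed its difference was -0.17 (adjusted p = 0.234). That of mrpl4 was then -0.24 (adjusted p = 0.195).

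These calls depended on which arrays were used. Leaving 1 array out lowers the precision for every gene and also changes the differences. How much each contributed to the lost calls was not tested. Without wild-type replicate 2, 9 of the 12 were lost, and 3 rises and 0 falls were called in the limma fit, where 8.41% of all probe sets were called higher and 1.36% lower. In that setting tom70 (0.65), mas2 (0.57) and tim44 (0.47) passed. The differences of the calls lost ran from -0.49 in mrpl4 to 0.47 in tim50, and were -0.46 in mrpl37, -0.31 in mrps16, -0.27 in mrp51, -0.36 in mrpl33, 0.32 in mrpl17, 0.28 in tim40 and 0.24 in tim54. Without fkh2-S2A replicate 2, 4 genes were called higher, with tim40 (0.46), tim54 (0.38) and mrpl17 (0.27) lost, and without wild-type replicate 1, 10 were called higher and 3 lower. The calls of mrpl4 (-0.38) and mrpl33 (-0.34) were among those lost without wild-type replicate 1.

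**Figure D2:**
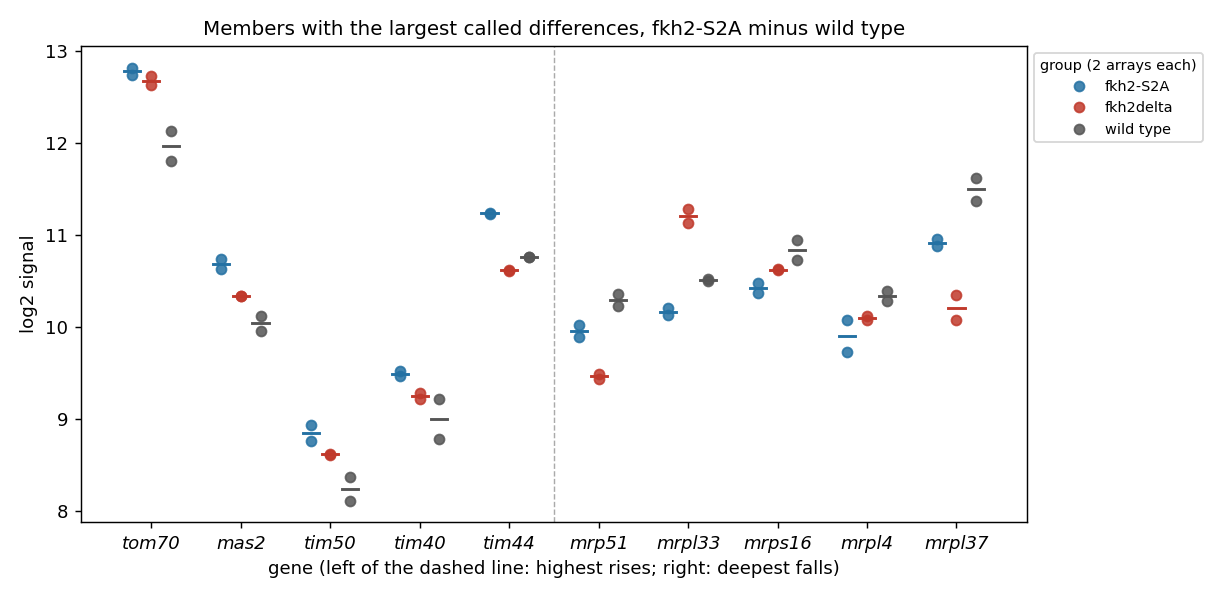
Log2 signal of the 5 called rises and 5 called falls of largest size in fkh2-S2A against wild type. Points are arrays (2 per group) and bars are group means, in the order fkh2-S2A, fkh2delta and wild type. The rises are import genes, the falls are ribosomal genes, and mrpl33 is the gene in which fkh2delta lies above wild type and fkh2-S2A below it.

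The direct comparison of the mutants is the test of whether their levels differ. Of the 63 genes, fkh2-S2A was above fkh2delta in 9 and below it in 31, which is 14.3% and 49.2%. Over all probe sets 49.1% were called, 22.5% higher and 26.6% lower. The median difference was -0.25 over the 63 genes and -0.02 over all probe sets. The ribosomal genes supplied 4 of the higher and 23 of the lower calls, and the import and insertion genes 5 and 7. A set of 28 genes was called higher in fkh2delta, was not called in fkh2-S2A against wild type and was called lower in the direct comparison. The calls against wild type and against fkh2-S2A use the same fkh2delta arrays, so they are not independent. How many of all probe sets had this pattern was not counted, so it is not shown to be particular to these genes. The set held 21 ribosomal genes, the chaperone genes tim8, tim9 and tim13, tom7, tom22, tim16 and tim11, with mrp17 as the uncertain case.

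The largest differences between the mutants were in genes already named for fkh2delta. Both comparisons use the same fkh2delta arrays, so this is not independent support. In fkh2-S2A relative to fkh2delta, tom40 was 1.05 ± 0.10 higher (adjusted p = 5.00e-05), mrpl10 was 1.03 ± 0.16 higher (adjusted p = 0.000803) and tim22 was 1.03 ± 0.11 higher (adjusted p = 9.80e-05). The genes oxa102 and mrpl37 were 0.74 ± 0.11 and 0.71 ± 0.13 higher. In the other direction, the fkh2-S2A difference from fkh2delta was -2.16 ± 0.12 for mrp17, -1.10 ± 0.11 for mrps17, -1.06 ± 0.14 for mrpl44, -1.04 ± 0.10 for mrpl33 and -0.96 ± 0.11 for tim9 (adjusted p = 0.000313 or lower in each). For tom40, tim22, mrpl10 and oxa102 the fkh2-S2A difference from wild type did not pass. For mrpl37 and mrp51 it did, and both were lower than wild type in each mutant and lowest in fkh2delta.

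Against the same wild-type arrays, tom70, tim50, tim54, mas2 and mrpl17 were called higher in both mutants, and mrpl37 and mrp51 were called lower in both. The mutants differed in 4 of these 7 genes in the direct comparison. They were mas2 (0.35 ± 0.10 higher in fkh2-S2A, adjusted p = 0.0183), mrpl17 (-0.63 ± 0.10, adjusted p = 0.00123), mrpl37 (0.71 ± 0.13, adjusted p = 0.00191) and mrp51 (0.50 ± 0.10, adjusted p = 0.00328). It did not pass for tom70 (0.10 ± 0.12), tim50 (0.23 ± 0.12) or tim54 (-0.18 ± 0.13), which does not show that their levels were equal. The call of mas2 was lost without either fkh2delta array (0.35 in each case) and without fkh2-S2A replicate 1 (0.30). A further 11 genes were called in no comparison: mrpl3, mrpl7, mrpl8, mrpl9, mrpl51, mrp4, tim14, tim21, tom20, oxa101 and mas5. Some of them gained a call in alternatives. With quantile normalization, median centring or the length trend removed by a line, mrpl3 was called between the mutants and tim14 in fkh2delta against wild type. With the length trend removed mrpl8 was called in fkh2-S2A against wild type, and with median centring oxa101 was called in fkh2delta against wild type. The fkh2-S2A mean lay between the means of fkh2delta and wild type in 26 of the 63 genes. For these counts across comparisons the shares over all probe sets were not taken, so they are not shown to be particular to the 63 genes.

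**Figure D3:**
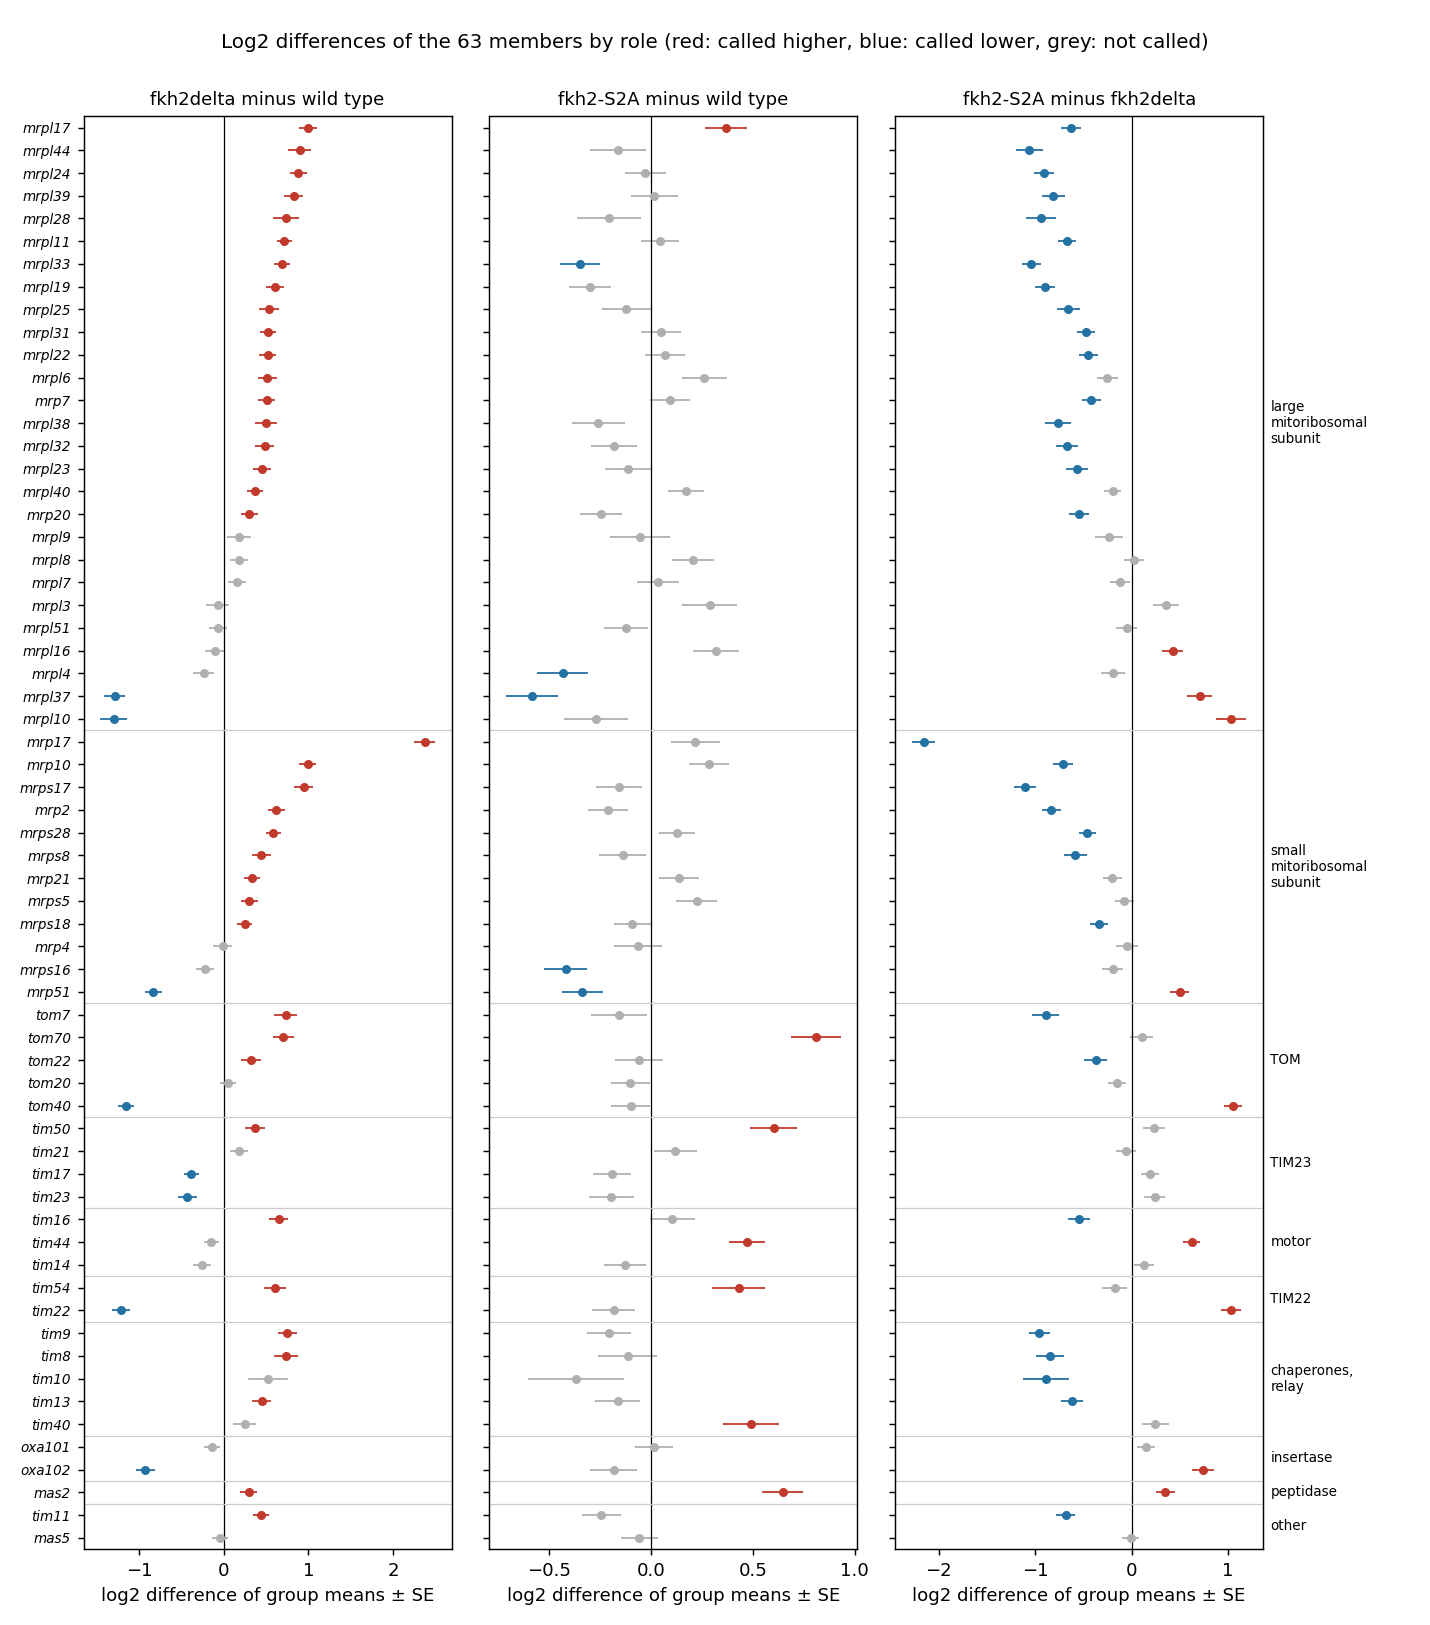
Log2 differences of group means ± SE for the 63 genes by role, for fkh2delta minus wild type, fkh2-S2A minus wild type and fkh2-S2A minus fkh2delta. Each panel has its own scale, and colours mark genes called higher, called lower or not called at an adjusted p of 0.05 in limma. Ribosomal genes are mostly called higher in the first panel (27 of 39, 69.2%) and lower in the last (23 of 39, 59.0%). In the middle panel 6 of the 39 (15.4%) are called. Over all probe sets the shares are 40.4%, 26.6% and 33.3%. Over all tested genes no longer than the median of the 63 they are 45.2%, 50.4% and 14.9%.

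Gene length moved with these counts. The 63 genes are short, with a median annotated length of 1087 bases against 1876 over the genes tested. On each array, the deviation of every gene from its own mean over the 6 arrays was set against log2 length. The slope, in log2 per doubling of length, was -0.07 and -0.06 on the fkh2delta arrays. It was 0.07 and 0.11 on the fkh2-S2A arrays and -0.03 and -0.01 on the wild-type arrays. Such slopes compare the arrays with each other and do not give how the signal itself varies with length. The excess of the 3′ over the 5′ control probe sets, a sign of RNA quality or labelling, averaged 1.53 and 1.61 over 6 control genes on the fkh2delta arrays, 1.34 and 1.24 on the fkh2-S2A arrays and 1.27 and 1.27 on the wild-type arrays. Across the 63 genes the fkh2-S2A difference from wild type correlated with log2 length (Pearson r = 0.51, Spearman rho = 0.51). Across all 2917 single-gene probe sets these were 0.25 and 0.24. For fkh2delta against wild type the 63 genes gave r = -0.13 and rho = -0.32. These describe genes, which are not independent replicates and share the same arrays.

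Split at their median length, 24 of the 32 shorter genes rose and 2 fell in fkh2delta (75% and 6.25%), where 45.2% of all tested genes of that length rose and 9.27% fell. Of the 31 longer genes 14 rose and 6 fell (45.2% and 19.4%), beside 39.5% and 26.7% of all longer genes. In fkh2-S2A against wild type, none of the shorter genes rose and 3 fell (9.38%), where 3.83% of all genes of that length rose and 11.1% fell. Of the longer genes 7 rose and 2 fell (22.6% and 6.45%), beside 27.5% and 9.67% of all longer genes. In fkh2-S2A relative to fkh2delta, 24 of the 32 shorter genes were lower (75%), beside 50.4% of all genes of that length, and 7 of the 31 longer ones (22.6%), beside 21.8%. With the length trend removed from each array, 36 genes were called higher and 9 lower in fkh2delta against wild type, beside 40.2% and 24.0% of all probe sets. In fkh2-S2A against fkh2delta 11 were then called higher and 28 lower, beside 22.2% and 26.4%. The part of RNA quality and of the 3′ excess in these results was not tested.

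**Figure D4:**
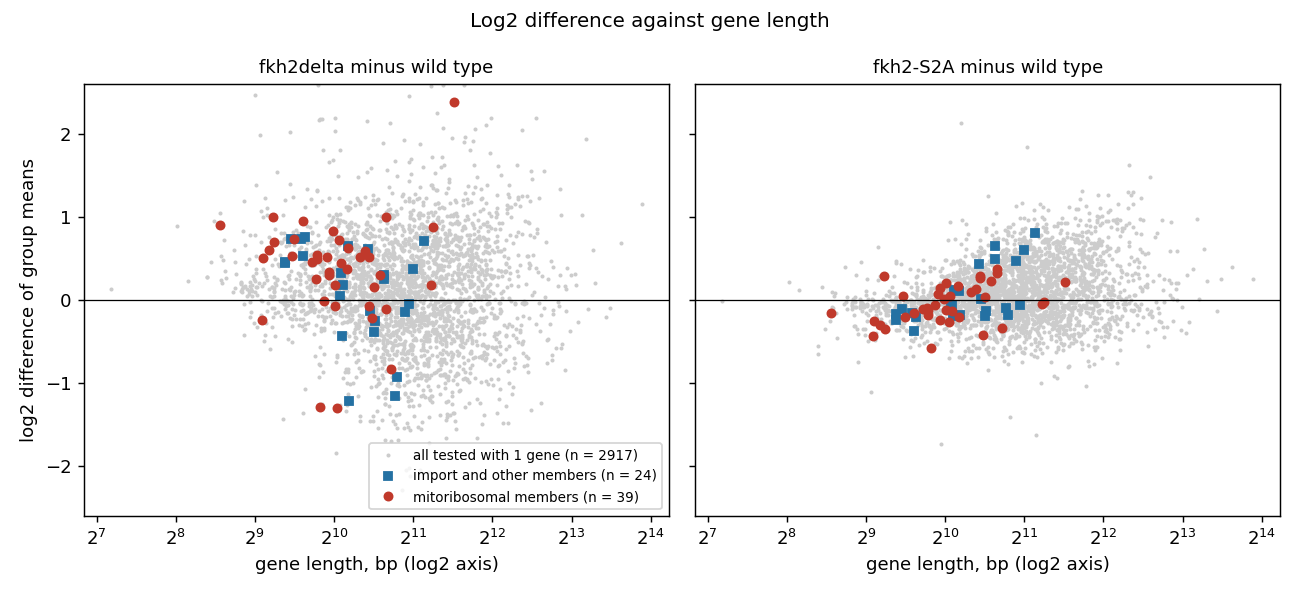
Log2 difference from wild type against annotated gene length in bases (log2 axis), for fkh2delta (left) and fkh2-S2A (right). Red circles are the 39 ribosomal genes, blue squares the other 24, and grey dots all 2917 single-gene probe sets, of which 25 lie outside the vertical axis on the left. On the right the differences of the 63 genes rise with length (r = 0.51), and on the left the highest point is mrp17.

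Other genes of the same pathways, chosen by name and outside the symbol rule, moved in both directions. Their shares are read against all probe sets, of which 40.4% rose and 23.6% fell in fkh2delta and 23.5% and 9.84% in fkh2-S2A. Of 11 further mitochondrial ribosomal proteins measured, 5 rose and 2 fell in fkh2delta (45.5% and 18.2%), with a median of 0.22. The small-subunit genes rsm18 and rsm19 rose by 0.61 ± 0.10 and 0.52 ± 0.10, and the difference of rsm23 was -0.53 ± 0.09. In fkh2-S2A 1 of the 11 rose and 1 fell (9.09% each). They were rsm10 (0.36 ± 0.09) and rsm19 (-0.45 ± 0.10), so that rsm19 was called in opposite directions in the mutants, as mrpl33 was. Of 21 import and assembly partners, 7 rose and 5 fell in fkh2delta (33.3% and 23.8%) with a median of -0.04. The inner-membrane protease gene yta12 (-1.09 ± 0.11) and mdm34 (-1.001 ± 0.10), for a tether to the endoplasmic reticulum, fell, and the inner-membrane gene mdm31 rose (0.91 ± 0.16). In fkh2-S2A 3 of the 21 rose and 2 fell (14.3% and 9.52%). In fkh2-S2A relative to fkh2delta, ssc1, which encodes the Hsp70 of the import motor, was 0.65 ± 0.10 higher and the motor gene pam17 was lower (-0.71 ± 0.10).

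Of 27 mitochondrial translation and RNA factors, 13 rose and 8 fell in fkh2delta (48.1% and 29.6%), with a median of 0.30. The translation elongation factor gene tuf1 gave 11.54 and 11.27 in fkh2delta, 12.71 and 12.78 in fkh2-S2A and 12.72 and 12.84 in wild type. It was lower in fkh2delta than in wild type by a log2 difference of -1.38 ± 0.11 (adjusted p = 2.31e-05), and its fkh2-S2A difference from wild type of -0.03 ± 0.11 did not pass. The cytochrome oxidase assembly gene mss51 (-1.44 ± 0.13) and the pentatricopeptide repeat gene ppr7 (-1.37 ± 0.15) fell as well. In fkh2-S2A 6 rose and 3 fell (22.2% and 11.1%, near the shares of all probe sets), with the exoribonuclease gene rpm1 (0.79 ± 0.14) and ppr3 (0.64 ± 0.15) highest and ppr7 lowest (-0.59 ± 0.15). In fkh2-S2A relative to fkh2delta, tuf1 was 1.34 ± 0.11 higher, the ribosome recycling factor gene rrf1 was 1.11 ± 0.11 higher, and cbp6, a gene of cytochrome b synthesis, was lower (-1.005 ± 0.10).

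Of 112 cytosolic ribosomal protein genes measured, 2 rose and 12 fell in fkh2delta (1.79% and 10.7%), with a median difference of -0.01. None of the 112 was called in fkh2-S2A against wild type in limma, where 1 had an unadjusted p below 0.05. They are shorter still, with a median length of 686 bases, and their signals lay near the top of the scale. Their median signal was between 14.16 and 14.23 on the 6 arrays, where the highest value in the table was 14.76. Whether signals this high were saturated was not tested, so the low counts do not show that these genes were unchanged. Of 40 respiratory chain and ATP synthase genes, 8 rose and 14 fell in fkh2delta (20% and 35%) with a median of -0.16, and 3 rose and 7 fell in fkh2-S2A (7.5% and 17.5%) with a median of -0.22. The cytochrome oxidase gene cox5 had a difference of -1.25 ± 0.10 in fkh2delta. The differences between these lists and the 63 genes were not tested.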

How the data were processed

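Total RNA was labelled with biotin and hybridised to arrays that carry probe sets of both yeasts, per the labels' protocols. The table deposited by the authors holds 1 log2 value per probe set and array, with the base taken from the range of the values. The sources used here do not say how the probes were summarised, background-corrected and normalized. Values were used as deposited. Of 10928 probe sets, 5538 were listed in the platform annotation. Matched by Entrez identifier, or by symbol for 3, to the genes of assembly ASM294v3, they gave 2936 S. pombe probe sets, and the assembly served for names, gene overlap and length. All 63 genes matched.

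A linear model with group as its one term was fitted to the 6 arrays with limma 3.58.1 in R 4.3.3 (lmFit, eBayes, 3 residual and 5.73 prior degrees of freedom). P-values are two-sided and Benjamini-Hochberg adjusted over the 2936 probe sets of each comparison. The steps were tested on simulated data. What the p-values measure is the spread between arrays, and it may be technical.

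Array values are given, per comparison, for the 5 highest and 5 lowest called genes and for genes that differ by 1 or more on the log2 scale between the mutants. Other pathway genes were taken from lists of further mitochondrial ribosomal proteins, import partners, and translation and RNA factors, and from symbol patterns for cytosolic ribosomal proteins and respiratory genes. From each list the 3 largest changes per comparison could be named. Symbols found to stand for other proteins were removed from the lists after their values were seen. The 63 genes and the lists were chosen with earlier results of these data known. No sequence was available to print, and a planned search of promoters for motifs was not run.

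Alternatives were quantile normalization, median centring, removal of the length trend by a line or by a lowess curve (the curve added after the data were seen), a filter on dim probe sets, a test over both species, eBayes with a trend or a robust prior, a fit on the 2 groups compared, a replicate block by number, leaving out each array in turn, and membership by current symbols.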

Additional observations from a re-analysis of the deposited data

How the results depend on the processing

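Across 16 alternatives no call of the 63 genes changed sign, while in each comparison some genes gained a call in some of these alternatives. In fkh2delta against wild type 33 of 46 calls held in all of them, in fkh2-S2A against wild type 3 of 12 (tom70, mas2 and tim44), and in fkh2-S2A against fkh2delta 31 of 40. Median centring gave 13 lower calls in fkh2delta and 10 in fkh2-S2A against wild type. The fkh2-S2A falls numbered 3 with the length trend removed by a line, by a curve, or with both species tested. Leaving out 1 array at a time gave 0 to 4 of these falls and 3 to 10 rises. The median difference in fkh2delta against wild type was 0.25 with centring, 0.34 with the curve, 0.41 with current symbols, and 0.35 to 0.45 without 1 array. In fkh2-S2A against wild type it was -0.18 with centring, 0.013 with the line, 0.033 with the curve, and -0.0918 to -0.0122 without 1 array. In fkh2-S2A against fkh2delta it was -0.21 with centring, -0.19 with the line, -0.18 with the curve, -0.30 with current symbols, and -0.35 to -0.23 without 1 array. The cause of these shifts was not tested. Same-numbered arrays did not deviate together from their group means (correlations of -0.18, -0.09 and -0.27). These rest on 1 difference between arrays per group and cannot decide whether same-numbered arrays shared a culture or day, which the labels do not say. The replicate block gave 36 higher and 8 lower in fkh2delta, 7 and 4 in fkh2-S2A, and 9 and 31 between the mutants. With 2 arrays per group the precision rests on the spread shared by the 3 groups. All 63 genes were above background on every array. Whether non-specific signal affected the dimmer ones was not tested.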

Other observations

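The genes that the current symbols add were not alike. The gene tom6, for a small subunit that stabilises the TOM complex, gave 8.42 and 8.69 in fkh2delta, 8.38 and 7.85 in fkh2-S2A and 8.08 and 8.06 in wild type. It rose in fkh2delta by 0.48 ± 0.17 (adjusted p = 0.0320, limma), and its fkh2-S2A arrays lay on both sides of wild type. The gene sdh4, also called tim18, encodes a membrane anchor of succinate dehydrogenase. It gave 12.36 and 12.31 in fkh2delta, 12.10 and 12.25 in fkh2-S2A and 12.61 and 12.72 in wild type. It was lower than wild type in both mutants, with differences of -0.32 ± 0.10 in fkh2delta (adjusted p = 0.0193) and -0.49 ± 0.10 in fkh2-S2A (adjusted p = 0.00769).

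The 73 probe sets listed for S. cerevisiae genes of the same symbols had medians between 3.88 and 4.08 on the 6 arrays, and at most 2 of them lay above background on any array.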
